A study of Mus musculus with 3 samples.

Results

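The genes described here are those of MHC class I and antigen processing, 47 of the 23238 gene symbols counted in RNA-seq libraries of c2c12 cells, an immortalized mouse myoblast line derived from C3H mice. Members were found by symbol: every H2-K, H2-D, H2-Q, H2-T and H2-M gene with a number in its name, together with B2m, Tap1, Tap2, Tapbp, Tapbpl, Psmb8, Psmb9, Psmb10, Psme1, Psme2, Erap1, Nlrc5, Calr, Canx, Pdia3, Gm8909 and 2410017I17Rik. The set was chosen by its ratios of GelMA-PSS to the controls in these same libraries, so these ratios describe the members and are no test of them. Of the members, 32 were counted as class I heavy chain genes, Gm8909 and the overlapping transcript 2410017I17Rik included, and 15 belonged to the light chain, peptide supply, transport, loading and control of the genes.

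All cells were switched to myogenic induction medium with 2% horse serum and were harvested on day 2. They grew on tissue culture plate (TCP), on hydrogel of 15% methacrylated gelatin (GelMA), or on the same hydrogel with 1% poly sodium 4-styrenesulfonate, a sulfonated polymer that mimics heparin (GelMA-PSS). TCP and GelMA are the 2 controls. Each substrate gave 1 library, so differences could not be checked against replicates, and p-values were not computed. Differences between GelMA and TCP served as the yardstick for how far libraries of cultures without PSS lay apart.

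MHC class I molecules are cell surface proteins made of a polymorphic heavy chain and the invariant light chain beta-2-microglobulin. They carry peptides that the proteasome cuts from cytosolic proteins, that the TAP transporter brings into the endoplasmic reticulum, and that tapasin and its partners load onto the heavy chain. In mice the heavy chains lie in the H2 complex on chromosome 17: H2-K and H2-D encode the classical molecules that present to cytotoxic T cells, and H2-Q, H2-T and H2-M encode nonclassical molecules. Skeletal muscle cells are known for low class I levels in healthy tissue and for class I upregulation in inflammatory muscle disease. Class I promoters carry an NF-kB site, an interferon-stimulated response element (ISRE) and a CCAAT box in the reverse orientation, and Nlrc5 is the transactivator of this promoter type.

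Promoter windows are shown first because they set the heavy chains with these motifs beside Gm8909, the protein-coding member with the largest increase, and B2m. Each window holds 110 bases of the RefSeq sequence on GRCm38.p6, read from 5′ to 3′ on the strand of the gene, and ends with the reversed CCAAT box. Capitals mark GGGATTCCC (NF-kB site), AANN followed directly by GAAACT (ISRE) and CCAAT, each searched on both strands. The ISRE and the CCAAT box stand here on the opposite strand.
H2-K1 promoter (chr17:34000359-34000468, minus strand): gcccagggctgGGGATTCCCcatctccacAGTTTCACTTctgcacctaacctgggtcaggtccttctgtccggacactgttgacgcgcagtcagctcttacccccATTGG
H2-D1 promoter (chr17:35262913-35263022, plus strand): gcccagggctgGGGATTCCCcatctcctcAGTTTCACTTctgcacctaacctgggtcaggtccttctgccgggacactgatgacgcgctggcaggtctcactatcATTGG
H2-Q7 promoter (chr17:35439010-35439119, plus strand): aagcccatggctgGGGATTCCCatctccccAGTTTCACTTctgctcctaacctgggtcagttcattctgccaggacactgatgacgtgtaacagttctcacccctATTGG
H2-Q4 promoter (chr17:35379433-35379542, plus strand): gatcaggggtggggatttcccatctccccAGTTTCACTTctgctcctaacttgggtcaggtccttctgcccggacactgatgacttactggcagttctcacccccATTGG
Gm8909 promoter (chr17:36168618-36168727, minus strand): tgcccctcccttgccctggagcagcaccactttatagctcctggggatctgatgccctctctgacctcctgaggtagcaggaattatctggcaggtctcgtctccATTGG
B2m promoter (chr2:122147529-122147638, plus strand): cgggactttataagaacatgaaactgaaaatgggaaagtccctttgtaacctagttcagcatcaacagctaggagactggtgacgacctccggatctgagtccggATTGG

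RefSeq promoters, from 250 bases before to 50 bases after the start, were matched for 36 of the 47 members. The NF-kB letters were found in the promoters of 4 members, H2-K1, H2-D1, H2-Q6 and H2-Q7, against 0.353% of all 32851 promoters. The ISRE letters were found in 10 members, against 1.72% of all promoters. Of the 12 heavy chain genes that were tested and have a promoter in the table, 7 held the ISRE letters (H2-K1, H2-D1, H2-Q4, H2-Q6, H2-Q7, H2-Q10 and H2-T22). Of the 12 heavy chain genes too low to be tested 3 held them (H2-T3, H2-M10.1 and H2-M2), and of the 12 members outside the heavy chains 0 did. Only these exact letters were searched, so a site with other letters would be missed in any promoter, that of B2m included. Their absence does not show that a gene lacks such a site. CCAAT stood in 27 of the 36 promoters and in 37.4% of all promoters. In Gm8909, 2410017I17Rik, H2-Q2, H2-T23 and H2-M3 neither the NF-kB nor the ISRE letters were present in this window, which says nothing on whether a factor binds there.

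The deposited counts summed to 119799095 (TCP), 87071144 (GelMA) and 192171443 (GelMA-PSS). Counts were scaled to CPM, counts in each 1000000 of the library, with TMM factors of 1.02, 1.04 and 0.943, and ratios are differences of log2(CPM + 1), a scale on which changes of low genes appear too small. A gene was tested when it reached 1 CPM in at least 1 library, and was called higher or lower when it passed 2-fold in GelMA-PSS against both controls. Of all 13169 genes tested, 1.37% were called higher and 1.16% lower, 45.3% lay above both controls by any size and 39.3% below both, and 1.0% differed by more than 2-fold between GelMA and TCP. Counts in the gene lists below are to be read beside these shares. A short list would hold few calls at them if any, so a lack of calls there is no finding about its genes. Each interval is a 95% Wilson interval of counting error alone. It would be too narrow where a read pair was counted as separate reads, and in each library more symbols had a count of 2 than a count of 1.

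Ratios in GelMA-PSS fell with transcript length across all genes, with a Spearman correlation of -0.593 over 13060 genes with a GENCODE vM21 length, which is a description across genes of the same libraries. Heavy chain transcripts measured 998 to 2182 bases, and the 3348 genes tested in that range had a median log2 ratio to the control mean of 0.30, beside 0.03 for all genes tested. Of these 3348 genes, 2441 lay above both controls by any size, 461 lay below both and 56 were called higher. Uncorrected shares over all genes are thus a low yardstick for short transcripts. For this reason each ratio is also given after subtraction of the trends with transcript length and GC content, as the corrected ratio. After the correction 40.8% of genes lay above both controls, 40.7% below both, and 0.436% were higher by more than 2-fold.

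On GelMA-PSS the class I heavy chains tested lay above both controls, some by more than 2-fold. Of the other 12 members tested 0 were called, 8 lay above both controls and 4 below, and the PA28 genes Psme1 and Psme2 were among those past 1.5-fold. Among the 32 members tested, 8 were called higher, beside 1.37% of all genes, and 0 were called lower, beside 1.16%. The called members were all among the symbols counted as heavy chains: H2-D1, H2-Q1, H2-Q2, H2-Q5, H2-Q7, H2-Q8, Gm8909 and 2410017I17Rik. Of these, 2410017I17Rik is annotated as a noncoding RNA and passed the filter only through GelMA-PSS. H2-Q5 is annotated as a polymorphic pseudogene. Between GelMA and TCP 0 members differed by more than 2-fold, beside 1.0% of all genes. By any size, 28 members lay above both controls, beside 45.3% of all genes, and 4 below both, beside 39.3%, namely Tapbp, Tapbpl, Erap1 and Canx. At a threshold of 1.5-fold, which 8.08% of all genes passed upward, 20 members were higher and 0 lower. Of the 3348 genes in the length range of the heavy chains, 2441 lay above both controls and 442 passed 1.5-fold upward. The median log2 ratio of the members was 0.75 to the control mean, beside 0.03 for all genes, and it was 0.00 for GelMA against TCP. After the correction, 23 of the 29 members with a length lay above both controls and 5 below, 3 passed 2-fold, and the median was 0.45.

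**Figure D1:**
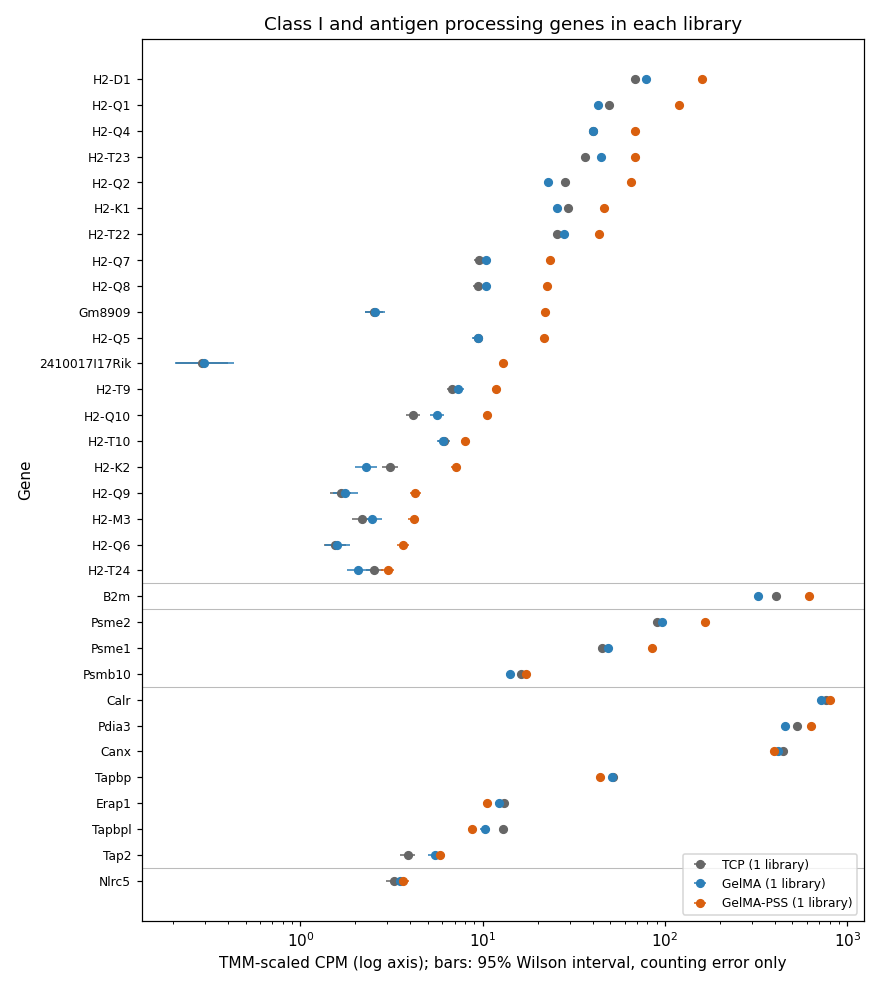
TMM-scaled CPM (log axis) of the 32 members tested in the TCP (grey), GelMA (blue) and GelMA-PSS (orange) libraries, 1 library each, with bars for the 95% Wilson interval of counting error; horizontal lines separate heavy chains, light chain, peptide supply, transport and loading, and Nlrc5. The GelMA-PSS point lies to the right of both controls for each of the 20 heavy chains and to the left for Canx, Tapbp, Erap1 and Tapbpl.

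All 20 heavy chain symbols tested lay above both controls in GelMA-PSS, with log2 ratios to the control mean from 0.28 to 3.43 and a median of 0.97. The median corrected ratio was 0.77 over the 17 that have a GENCODE length, and each of the 17 remained above both controls. A single symbol, 2410017I17Rik, passed the filter only through the GelMA-PSS library. Of the other 12 heavy chain symbols, which were not tested, 11 are H2-M genes and the remaining symbol is H2-T3.

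The classical heavy chains H2-D1 and H2-K1 present peptides to cytotoxic T cells. H2-D1 (chromosome 17, 35262730 to 35267499, plus strand, GRCm38) had 68.5 CPM on TCP, 78.9 on GelMA and 160 on GelMA-PSS, from 8337, 7169 and 29055 counts. The value on GelMA-PSS was 2.03 times that on GelMA and 2.34 times that on TCP, with log2 ratios of 1.01 and 1.22, while the controls differed by 0.20. H2-K1 (chromosome 17, 33996017 to 34000347, minus strand) had 29.3 CPM on TCP, 25.4 on GelMA and 45.9 on GelMA-PSS. Its log2 ratios were smaller, 0.83 to GelMA and 0.63 to TCP, so it was not called. Corrected ratios to the control mean were 1.01 for H2-D1 and 0.52 for H2-K1.

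Per kilobase of transcript, H2-D1 stood at 32.6, 37.5 and 76.3 CPM on TCP, GelMA and GelMA-PSS, and H2-K1 at 18.1, 15.7 and 28.4. The count ratio of H2-D1 to H2-K1 was 2.34 on TCP, 3.11 on GelMA and 3.49 on GelMA-PSS, so the controls differed more from each other in this ratio than GelMA-PSS did from GelMA. H2-K2, annotated as a transcribed pseudogene beside H2-K1, had 3.08, 2.29 and 7.09 CPM. It missed the 2-fold threshold against TCP by little, with log2 ratios of 1.30 to GelMA and 0.99 to TCP. Just inside the threshold stood H2-D1, at 1.01 to GelMA, and H2-Q8, at 1.05 to GelMA.

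The H2-Q symbols, which include those of genes for the Qa-2 antigen (H2-Q7 and its neighbours), held the most called members. All 9 were tested and lay above both controls, 5 were called higher, and their median log2 ratio was 1.11. Whether these cells carry or express genes for Qa-2 was not tested. Reads of similar class I genes may have been counted under these symbols. H2-Q1 had 49.5 CPM on TCP, 43.0 on GelMA and 120 on GelMA-PSS, with intervals of 48.3 to 50.8, 41.6 to 44.3 and 118 to 121. This was 2.79 times the value on GelMA and 2.42 times that on TCP. H2-Q8, H2-Q9 and H2-T9 have no corrected ratios. Of the other H2 symbols only H2-Q1 passed 2-fold against both controls in its corrected ratios, at 1.21 and 1.08. Its neighbour H2-Q2 had 28.2, 22.9 and 65.1 CPM, with log2 ratios of 1.47 and 1.18. In both genes GelMA lay below TCP, by log2 differences of 0.20 and 0.29.

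H2-Q4, near in level per kilobase to H2-Q1 on the controls (22.5 CPM on both), reached 38.3 CPM per kilobase on GelMA-PSS, where H2-Q1 reached 59.2. Its log2 ratios were 0.75 against GelMA and 0.75 against TCP. H2-Q5, annotated as a polymorphic pseudogene, had 9.37, 9.38 and 21.6 CPM on TCP, GelMA and GelMA-PSS, and H2-Q7 had 9.51, 10.4 and 23.3. H2-Q10, which encodes a secreted class I molecule known from liver, had 4.12, 5.60 and 10.5 CPM and fell below the threshold against GelMA alone, with log2 ratios of 0.80 and 1.17. H2-Q6 with 1.54, 1.60 and 3.67 CPM and H2-Q9 with 1.66, 1.76 and 4.27 CPM were the least counted of the group.

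Some of these symbols cannot be read as separate measurements. Of the 100-base windows of the H2-Q7 transcript, 21.9% occur unchanged in a transcript of another gene, most often H2-Q6, and the coding sequences of H2-Q6 and H2-Q7 are 95.4% identical. H2-Q8, H2-Q9 and H2-T9 have no position in GENCODE vM21. The count ratio of H2-Q7 to H2-Q8 was 1.01, 1.00 and 1.03 on TCP, GelMA and GelMA-PSS, and that of H2-Q9 to H2-Q6 was 1.07, 1.10 and 1.16, so these pairs moved together. Left without H2-Q8, H2-Q9 and 2410017I17Rik, 6 members were called higher in place of 8. The cells come from C3H mice and the reference genome from C57BL/6 mice, whose class I alleles differ, and how this affected the division of reads among symbols was not tested.

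The H2-T genes encode nonclassical molecules, and their ratios were smaller. Of 6 genes, 5 were tested, 5 lay above both controls, 0 were called, and the median log2 ratio was 0.67, or 0.27 after the correction. H2-T23, which encodes Qa-1, the presenter of leader peptides to natural killer cell receptors, had 36.3 CPM on TCP, 44.3 on GelMA and 68.1 on GelMA-PSS. H2-T22, whose product is recognized by gamma-delta T cells, had 25.6, 28.0 and 43.5 CPM, and H2-T9 had 6.81, 7.31 and 11.8. H2-T10, whose coding sequence is 96.3% identical to that of H2-T22, had 6.10, 6.06 and 7.98 CPM, a log2 ratio of 0.34 that came to 0.06 after the correction. H2-T24 had 2.55, 2.08 and 3.00 CPM, and its intervals on TCP, 2.28 to 2.84, and on GelMA-PSS, 2.76 to 3.27, overlapped. H2-T3, the gene of the thymus leukemia antigen, had 18, 19 and 30 counts and was not tested.

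Among the 12 H2-M genes, H2-M3, which encodes a presenter of N-formylated peptides, was the only gene tested, with 2.17, 2.45 and 4.17 CPM and log2 ratios of 0.58 and 0.71. H2-M1, H2-M9 and H2-M10.1 had 0 counts in each library, where 3 counts would correspond to 0.0246 CPM on TCP, 0.0330 on GelMA and 0.0166 on GelMA-PSS. H2-M10.3, H2-M10.4, H2-M10.6 and H2-M11 stayed at or below 3 counts, so that 7 members in all were not detectable at this depth. H2-M10.2 had 2, 5 and 5 counts and H2-M10.5 had 2, 0 and 4. H2-M5 and H2-M2 were highest on TCP, with 57, 27 and 34 counts and 25, 16 and 9 counts, which is 0.468, 0.297 and 0.188 CPM for H2-M5 and 0.205, 0.176 and 0.0497 CPM for H2-M2.

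**Figure D2:**
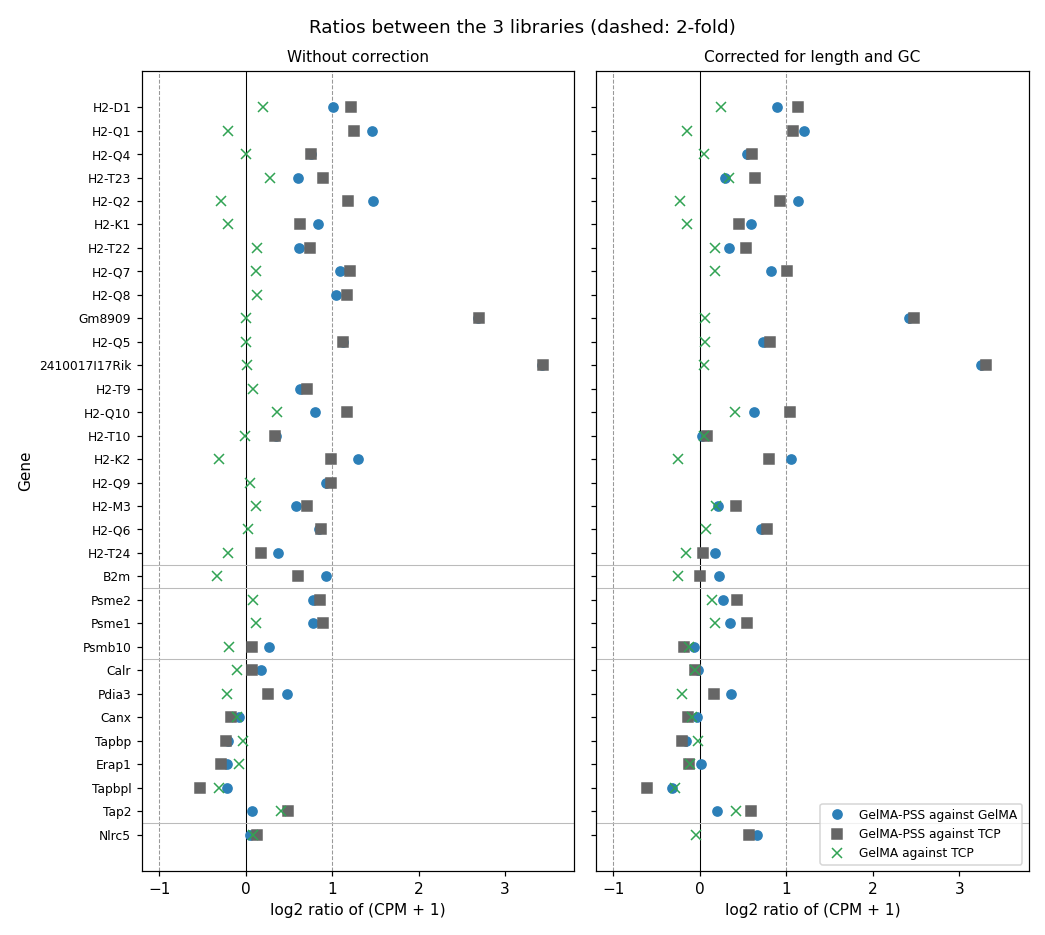
Log2 ratios of CPM + 1 for the 32 members tested, GelMA-PSS against GelMA (circles), GelMA-PSS against TCP (squares) and GelMA against TCP (crosses), without correction (left) and corrected for transcript length and GC content (right, 29 members with a length); dashed lines mark 2-fold. Gm8909 and 2410017I17Rik stand farthest to the right in both panels, and the crosses stay between the dashed lines for each member.

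The largest increases were those of Gm8909 and 2410017I17Rik, which lie beside each other between H2-T10 and H2-T3. Gm8909 is a protein-coding class I gene model (36164443 to 36168537 on chromosome 17, minus strand) whose coding sequence is 89.7% identical to that of H2-Q7, 88.6% to that of H2-D1 and 86.4% to that of H2-K1. It had 309 counts on TCP, 232 on GelMA and 3964 on GelMA-PSS, or 2.54, 2.55 and 21.9 CPM. The controls were the same within counting error, with intervals of 2.27 to 2.84 and 2.24 to 2.90, and the interval on GelMA-PSS was 21.2 to 22.6. GelMA-PSS was 8.57 times GelMA and 8.62 times TCP, with a log2 ratio of 2.69, or 2.45 after the correction.

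2410017I17Rik is annotated as a noncoding RNA (36145018 to 36163176, plus strand). It had 35 counts on TCP, 27 on GelMA and 2341 on GelMA-PSS, or 0.287, 0.297 and 12.9 CPM. This was 43.5 times the value on GelMA and 45.0 times that on TCP, and on the log2(CPM + 1) scale 3.43, or 3.29 after the correction. The RefSeq model of Gm8909 runs from 36143812 to 36168602 and spans 2410017I17Rik, and GENCODE places both genes on opposite strands. Whether the counting used strand is not given in the sources used here, so reads of this pair cannot be told apart with certainty.

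Gm8909 was also higher on GelMA-PSS relative to the classical heavy chains of the same library. The count ratio of Gm8909 to H2-K1 was 0.0866 on TCP, 0.101 on GelMA and 0.476 on GelMA-PSS, and that of Gm8909 to H2-D1 was 0.0371, 0.0324 and 0.136. Of the 100-base windows of its transcript 2.63% occur in another gene, all of them in H2-D1, and 0 windows of 2410017I17Rik do. These windows were read on the sense strand of GENCODE transcripts, so they cannot show the overlap of this pair on opposite strands. Within the pair the ratio of 2410017I17Rik to Gm8909 also changed, from 0.113 on TCP and 0.116 on GelMA to 0.591 on GelMA-PSS. Together they made up 2.83 of 338 summed heavy chain CPM on TCP, 2.85 of 346 on GelMA and 34.8 of 727 on GelMA-PSS.

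Summed over all 32 heavy chain symbols, TCP had 338 CPM (334 to 341), GelMA 346 (342 to 350) and GelMA-PSS 727 (723 to 731). Such a sum is free of how reads were divided only where each read was counted once and within these symbols. How reads that match several genes were counted is not given in the sources used here. The sum on GelMA-PSS was 2.10 times that on GelMA and 2.15 times that on TCP, and both controls were close to each other. Without Gm8909 and 2410017I17Rik the sums were 335, 343 and 692 CPM, or 2.02-fold and 2.07-fold. By class, GelMA-PSS stood at 2.33 times GelMA and 2.21 times TCP for H2-Q, at 2.03 and 2.34 times for H2-D1, at 1.92 and 1.64 times for H2-K, and at 1.53 and 1.74 times for H2-T. H2-D1 remained the largest contributor, with 20.3%, 22.8% and 22.1% of the heavy chain counts on TCP, GelMA and GelMA-PSS. The share of H2-K1 was 8.68%, 7.34% and 6.32%, and that of H2-T23 was 10.8%, 12.8% and 9.37%.

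**Figure D3:**
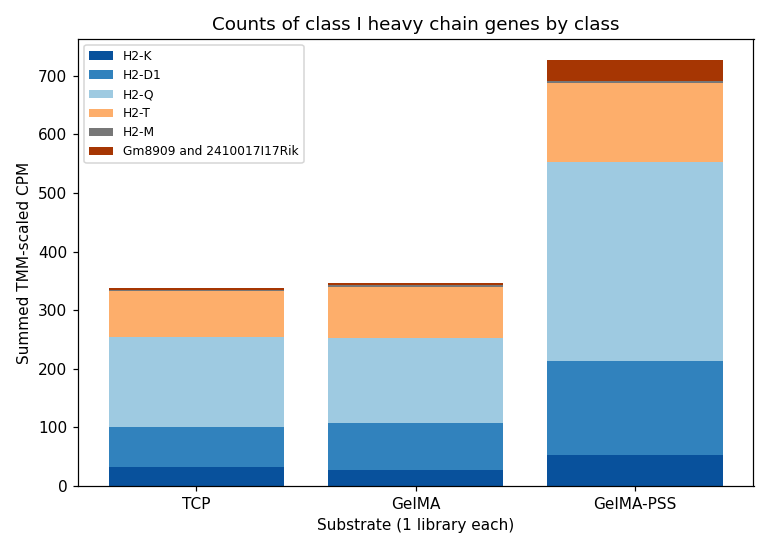
Summed TMM-scaled CPM of the 32 class I heavy chain symbols in each library, stacked by class, 1 library per substrate. The total is 338 CPM on TCP, 346 on GelMA and 727 on GelMA-PSS, and the H2-Q part is the largest in each.

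B2m encodes beta-2-microglobulin, the light chain shared by all class I molecules. It had 408 CPM on TCP (405 to 412), 324 on GelMA (320 to 328) and 620 on GelMA-PSS (616 to 623). GelMA-PSS was thus highest and GelMA lowest, with log2 ratios of 0.93 to GelMA and 0.60 to TCP, and of -0.33 for GelMA against TCP. B2m has a short transcript of 860 bases, and its corrected ratio to the control mean was 0.11, smaller than its corrected difference of -0.25 between GelMA and TCP. The count ratio of all heavy chains to B2m was 0.827 on TCP, 1.07 on GelMA and 1.17 on GelMA-PSS.

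**Figure D4:**
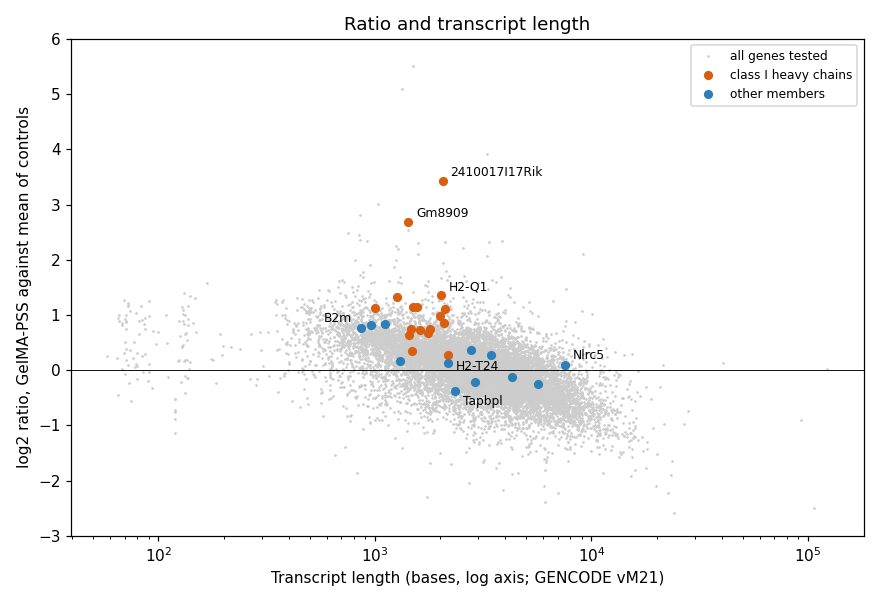
Log2 ratio of GelMA-PSS to the control mean by transcript length (log axis, bases) for all genes tested with a GENCODE vM21 length (grey), 17 heavy chains (orange) and 12 other members (blue). Ratios fall with length, with B2m near the middle of genes of its length and Gm8909 and 2410017I17Rik far above theirs.

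Peptide supply was described by 5 members. Psme1 and Psme2 encode the PA28 activator, which caps the proteasome and is induced by interferon-gamma in many cells. Psme1 had 44.8 CPM on TCP, 48.8 on GelMA and 84.3 on GelMA-PSS, and Psme2 had 90.8, 96.2 and 165. Log2 ratios to the control mean were 0.84 and 0.81, below 2-fold, and came to 0.45 and 0.35 after the correction. The count ratio of Psme2 to Psme1 stayed at 2.02, 1.97 and 1.96.

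The catalytic subunits of the immunoproteasome, which replace the constitutive subunits under interferon, were low or close to the controls. Psmb8 had 3, 12 and 38 counts (0.0246, 0.132 and 0.210 CPM) and Psmb9 had 3, 0 and 9 counts, and neither was tested. Psmb10 had 16.2, 14.1 and 17.2 CPM, with a log2 ratio of 0.17 that was -0.13 after the correction. Their constitutive counterparts Psmb5, Psmb6 and Psmb7 had 120, 153 and 247 CPM on TCP and 150, 215 and 321 CPM on GelMA-PSS. Psme4, another proteasome activator, had 222, 202 and 151 CPM. In the list of 7 constitutive proteasome genes, 0 were called in either direction, 5 lay above both controls and 2 below, and the median log2 ratio was 0.37, or 0.07 after the correction.

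Genes of peptide transport and loading lay on both sides of the controls. Of 8 members 7 were tested, 0 were called, 3 lay above both controls and 4 below, and the median log2 ratio was -0.12. Tapbp encodes tapasin, which holds the empty heavy chain at the TAP transporter, and had 52.1 CPM on TCP, 51.0 on GelMA and 44.2 on GelMA-PSS. Tapbpl, encoding a peptide editor related to tapasin, had 13.0, 10.3 and 8.69 CPM, the lowest ratio of all members at -0.37, or -0.46 after the correction. In relation to Tapbp, the summed counts of H2-K1 and H2-D1 stood at 1.88 on TCP, 2.05 on GelMA and 4.67 on GelMA-PSS.

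Tap2, a subunit of the TAP transporter, had 3.87 CPM on TCP, 5.48 on GelMA and 5.83 on GelMA-PSS, so that both hydrogels lay above TCP and the log2 ratio to GelMA was 0.08. Its partner Tap1 was low, with 30, 28 and 78 counts or 0.246, 0.308 and 0.431 CPM, and was not tested. Erap1, the aminopeptidase that trims peptides in the endoplasmic reticulum, had 13.0, 12.3 and 10.5 CPM, and its corrected ratios lay on both sides of 0, at 0.01 against GelMA and -0.13 against TCP.

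Calr, Canx and Pdia3 encode chaperones of the loading complex. Calr had 764, 715 and 806 CPM, Canx 446, 417 and 395, and Pdia3, the thiol oxidoreductase ERp57, 527, 453 and 631. The log2 ratio of Calr was 0.12 as scaled by TMM, but turned to -0.03 after the correction and to -0.00 when libraries were scaled by total counts alone. For Pdia3 it was 0.37, or 0.26 after the correction, with GelMA and TCP differing by 0.22.

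Nlrc5, the transactivator of class I genes, was low and near equal in all libraries. It had 3.24 CPM on TCP, 3.50 on GelMA and 3.65 on GelMA-PSS, with overlapping intervals of 2.94 to 3.58, 3.14 to 3.91 and 3.38 to 3.94. The log2 ratio to the control mean was 0.09 with TMM and -0.01 when scaled by total counts alone. Its transcript of 7578 bases is the longest of the members. After the correction it lay above both controls, with ratios of 0.66 to GelMA, 0.57 to TCP and 0.61 to the control mean.

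A list of 26 regulators of class I genes was tested in full. Among them were interferon receptors and their kinases, IRF, RFX, NF-Y, CREB and NF-kB factors, and SOCS proteins. Of the 26 genes 0 were called higher, beside 1.37% of all genes, and 0 lower, beside 1.16%. Above both controls lay 13, beside 45.3% of all genes, and below both 5, beside 39.3%. The median log2 ratio was 0.11, the same after the correction. Irf1, an interferon-induced activator of class I promoters, had 24.3, 28.1 and 33.7 CPM on TCP, GelMA and GelMA-PSS. Among the regulators with the largest change against the nearer control were Nfyb with log2 ratios of 0.45 and 0.42, Ifngr1 with 0.43 and 0.45, and Socs1, a feedback inhibitor of interferon signalling, with 0.40 and 0.63.

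Of 13 genes of folding, trimming and translocation in the endoplasmic reticulum or its vesicles, 2 were called higher, 0 lower, and the median log2 ratio was 0.22. The called genes were Sec61b, with 31.2, 38.3 and 78.3 CPM, and Sec61g, with 113, 115 and 261 CPM, both small subunits of the translocon. Neither passed 2-fold after the correction, where their ratios were 0.53 and 0.63. Lnpep, the aminopeptidase IRAP of endosomes, had 44.1, 70.4 and 24.1 CPM, with log2 ratios of -1.51 to GelMA and -0.84 to TCP. Of 6 cytosolic peptidases, which cut peptides before transport, 0 were called, 1 lay above both controls and 4 below, with a median of -0.19. Among them Lap3 had 88.8, 82.7 and 111 CPM and Thop1 had 206, 175 and 149.

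MHC class II genes, which mark professional antigen-presenting cells, were almost undetected. Of 11 listed genes only H2-DMa was tested, with 1.82, 1.93 and 2.71 CPM, and H2-Ab1 and H2-Ob had 0 counts in each library. The class II transactivator Ciita had 19, 15 and 14 counts. The summed class II list came to 2.18 CPM on TCP, 2.30 on GelMA and 2.95 on GelMA-PSS, beside 338, 346 and 727 for the class I heavy chains.

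Most listed markers of leukocytes and endothelial cells did not reach 1 CPM in any library. Of 15 leukocyte markers 3 did and were tested (Cd68, Itgam and Cd14). Of these 3, 0 were called, 1 lay above both controls and 2 below both. Ptprc, Cd3e and Adgre1 had at most 4 counts in any library. The 15 leukocyte markers summed to 5.63, 6.53 and 6.25 CPM on TCP, GelMA and GelMA-PSS. The 4 endothelial markers summed to 0.756, 0.682 and 0.905 CPM and 0 of them were tested. Of 4 fibroblast markers, some of which myoblasts also make, 3 were tested, 0 were called and Thy1 had at most 2 counts. They summed to 330 CPM on TCP, 376 on GelMA and 366 on GelMA-PSS, from Col1a1 with 120, 168 and 99.0 CPM, Dcn with 203, 197 and 260, and Pdgfra with 6.79, 10.0 and 7.44, and their part in the class I values was not tested. Markers of myoblasts were present in each library, with Myod1 at 94.3, 105 and 119 CPM and Des at 3299, 2863 and 3154.

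Muscle markers differed between the substrates. Of 8 markers 0 were called higher and 1, Myh3, was called lower, and their sum was 25575 CPM on TCP, 18904 on GelMA and 15939 on GelMA-PSS. By any size 2 of the 8 lay above both controls, 3 below both and 3 between. After the correction 2 lay above both and 5 below both. Not every marker is named here. Myh3, an embryonic myosin of forming myotubes, stood at 10182, 6355 and 3037 CPM, and without it the sum was 15393, 12548 and 12903. Myog, a factor of differentiating myoblasts, had 1100, 895 and 1037 CPM, and Tnnt3, a troponin of fast muscle, had 4153, 2857 and 3117, both lowest on GelMA. Myf5, a factor of undifferentiated myoblasts, had 13.9, 19.5 and 36.5 CPM. The part of this difference in the class I values was not tested. In these bulk libraries, fewer cells of a type and less RNA per cell cannot be told apart.

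The heavy chains lie among many genes of other functions in the H2 region. Between the start of H2-K2 (33974659) and the end of H2-M2 (37483552) on chromosome 17, 77 other genes were tested. The other class I gene models and the class II genes of the span are left out of this number. Of the 77 genes 0 were called higher, beside 1.37% of all genes, and 0 lower, beside 1.16%. The median log2 ratio of the 77 was 0.12, or -0.01 after the correction. In the corrected ratios 28 lay above both controls, beside 40.8% of all genes, and 34 below, beside 40.7%. The 17 heavy chain symbols in the same span had a median corrected ratio of 0.77, with the lowest at 0.06 for H2-T10.

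**Figure D5:**
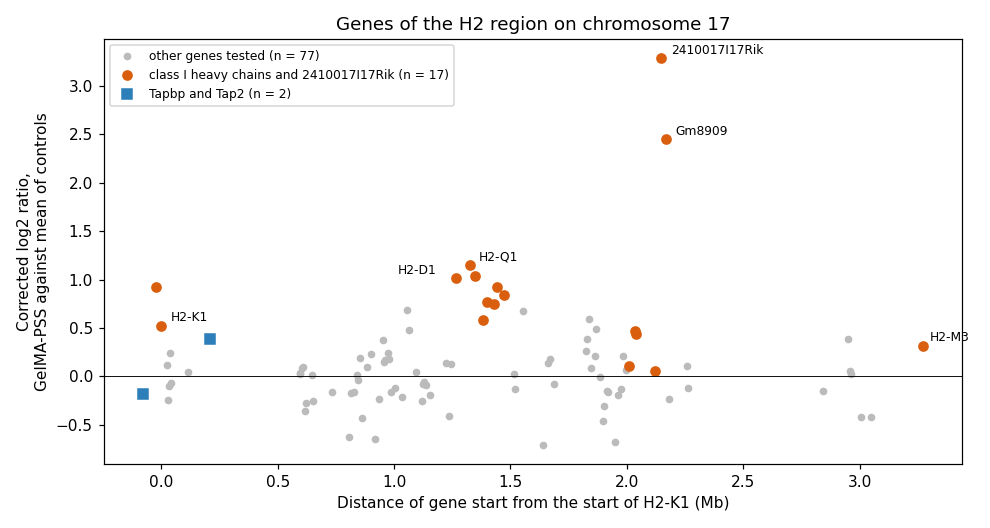
Corrected log2 ratio of GelMA-PSS to the control mean by distance of the gene start from that of H2-K1 on chromosome 17 (Mb), for 17 heavy chain symbols (orange), Tapbp and Tap2 (blue squares) and 77 other genes tested in the region (grey). Heavy chains lie above 0 at each of their clusters, with Gm8909 and 2410017I17Rik highest, and the grey points scatter on both sides of 0.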

How the data were processed

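RNA-seq counts of 3 c2c12 libraries, 1 per substrate, were analysed, with the substrates taken from the labels. Raw, unnormalized counts for each gene symbol are what the authors deposited. The submitters' processing notes name TopHat, edgeR, mm10 and hg19 without roles or versions, and the counting tool and annotation are not given in the sources used here. The methods name a TruSeq kit with strand-specific paired-end reads, the labels a SMARTER kit.

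Lines with the same symbol were summed (23282 lines, 23238 symbols). TMM factors came from edgeR 4.0.16. The floor was 3 counts, the filter 1 CPM in at least 1 library and the pseudocount 1 CPM. Symbols were matched to GENCODE vM21 directly (22197) or by RefSeq synonym (668), and the correction subtracted 2 successive loess fits (span 0.3, statsmodels 0.14.6). Motifs and shared 100-base windows were counted in Python 3.11.15. The call rule and the correction were also run on simulated counts with planted changes, scaled by median-of-ratios factors. The simulated counts held counting error alone, so the run cannot speak to the spread between cultures.

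The members and lists were chosen with earlier results of these data known. Every member above 3 counts in some library is named, and up to 3 genes of each other list with the largest change against the nearer control; Irf1, Psmb5, marker and class II genes were added for their roles, and C920025E04Rik after its values were seen. Alternatives covered scaling, pseudocount, filter, fold threshold, control, correction and gene set.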

Additional observations from a re-analysis of the deposited data

How the results depend on the processing

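Of the 32 members tested, 8 were called higher, and 8 with median-of-ratios size factors, without the CPM filter or with a filter of 5 CPM. The count was 4 with scaling by total counts alone (2410017I17Rik, Gm8909, H2-Q1 and H2-Q2), 3 after correction for transcript length and GC (2410017I17Rik, Gm8909 and H2-Q1), 11 with a pseudocount of 0.25 CPM and 20 at 1.5-fold. It was 6 without H2-Q8, H2-Q9 and 2410017I17Rik, an alternative chosen after seeing the data. The median log2 ratio of 0.75 was 0.63 with total counts alone, 0.66 without the CPM filter, 0.45 after the correction and 0.15 without heavy chains, where the construction of each alternative sets which genes enter or how they are scaled. Total counts alone moved the median of all genes tested from 0.03 to -0.08. The summed heavy chain CPM with total counts alone was 343 on TCP, 361 on GelMA and 685 on GelMA-PSS. Without H2-Q8, H2-Q9 and 2410017I17Rik it was 326, 333 and 687, and without Gm8909 and 2410017I17Rik it was 692 on GelMA-PSS. Counts of 0 members called lower and 0 differing between GelMA and TCP held under each setting run. The heavy chains that passed the filter of 1 CPM lay above both controls wherever they had a value under the 6 settings of scaling, pseudocount, filter and correction. Without the CPM filter 25 heavy chains had a value, of which 21 lay above both controls, H2-M2 and H2-M5 below both, and H2-T3 and H2-M10.2 neither. Of the 32 members 30 kept their sign with total counts alone, and 27 of 29 after the correction. No paired analysis was possible because each substrate has 1 library. With 1 library per substrate, the spread between cultures is unknown, and counting error is the only error given.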

Other observations

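Class I-like genes outside the H2 complex were counted as well. Of 11 listed, 8 were tested and 0 were called. All 8 lay above both controls, beside 45.3% of all genes, their median log2 ratio being 0.61, or 0.31 after the correction. In the corrected ratios 7 lay above both controls, beside 40.8% of genes, and 1 below both, beside 40.7%. The ligands of the natural killer cell receptor NKG2D formed an order of TCP, GelMA and GelMA-PSS. H60b had 0.936, 1.46 and 2.83 CPM, Raet1d 1.25, 1.97 and 3.20, and Raet1e 0.747, 1.37 and 2.17, while Ulbp1 had 3.61, 5.98 and 6.56. Procr, the endothelial protein C receptor with a class I-like fold, had 0.887, 2.51 and 3.76 CPM and differed most from TCP, with log2 ratios of 0.44 to GelMA and 1.34 to TCP. Mr1, which presents vitamin B metabolites, had 9.39, 12.2 and 16.5 CPM. Fcgrt, the neonatal Fc receptor that also pairs with B2m, had 44.8, 48.2 and 63.0 CPM. In these genes GelMA lay above TCP in 7 of 8, and among the 20 heavy chains in 14, beside 6359 of all 13169 genes tested. The median log2 ratio of GelMA to TCP was 0.38 in these genes and 0.02 in the heavy chains.

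Other class I gene models of the H2 region, not matched by the symbols used, gave similar or smaller values. Of 6 models 4 were tested and 0 were called. C920025E04Rik had 9.76, 13.2 and 21.3 CPM, with log2 ratios of 0.66 and 1.05, and Gm7030 had 4.78, 5.37 and 8.76. H2-Bl had 2.24, 2.98 and 3.95 CPM. Gm11127 had 10.6, 13.4 and 13.5 CPM, with a ratio of 0.02 against GelMA. H2-L, a symbol without a position in GENCODE vM21, had 0.723, 1.00 and 1.82 CPM, and its count ratio to H2-D1 was 0.0106, 0.0127 and 0.0114 on TCP, GelMA and GelMA-PSS.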
